A study of Arabidopsis thaliana with 24 samples.

Results

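The aquaporin family of Arabidopsis (Arabidopsis thaliana) was examined gene by gene in roots and shoots of diploids and neo-tetraploids grown with or without added NaCl. Its 35 genes were taken by gene identifier from the known family by a rule that uses no measured value, although the family was chosen with earlier results of these data known: 13 PIPs (5 PIP1 and 8 PIP2), 10 TIPs, 9 NIPs and 3 SIPs. Of these, 34 were listed in at least 1 library, among 26405 genes listed in any library. Gene names are written with a hyphen, where a semicolon is also in use.

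Wild-type Col-0 diploids and neo-tetraploid Col-0, made by whole-genome duplication, were grown for 2 weeks on agar-solidified medium with sucrose and with 0 or 35 mM added NaCl, and roots and shoots were sequenced separately. The 8 groups were diploid control, diploid NaCl, neo-tetraploid control and neo-tetraploid NaCl, each as roots and as shoots, with 3 replicate libraries per group and 24 libraries in all. No group carried a mutation or a transgene, and the number of neo-tetraploid lines behind these libraries is not given in the sources used here. Each replicate pooled several plants of 1 experiment, so the p-values measure the spread between these pools.

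Aquaporins are membrane channels that let water, and in some subfamilies small uncharged solutes, cross a membrane along its gradient. PIPs sit mainly in the plasma membrane and carry much of the water that crosses root and leaf cells. TIPs sit mainly in the vacuole membrane, NIPs pass solutes such as boric acid and arsenite besides water, and SIPs sit in the endoplasmic reticulum. Salinity lowers the water potential around the root, and PIPs are known to be regulated both by transcription and by trafficking and phosphorylation, which mRNA levels do not show.

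RSEM expected counts, estimates of the reads that belong to each gene, summed to between 11202503 and 11909554 per library. FPKM is the same quantity scaled to gene length and library total, and the levels of different genes are compared on that scale only. The organ labels fitted their markers, since the 5 root markers summed to between 609.74 and 2019.94 FPKM in root libraries and to between 1.99 and 8.99 FPKM in shoot libraries. The 5 shoot markers summed to between 33454.3 and 43255 FPKM in shoots and to between 73.11 and 264.12 FPKM in roots. In whole organs, fewer cells of a type and less RNA per cell cannot be told apart.

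The members share a pair of short pore boxes, in which the codons for asparagine and proline are followed, in most members, by a codon for alanine. A search of the RefSeq coding sequences (TAIR10.1) found 1 such pair in each of the 35 members, with the boxes between 111 and 121 codons apart, and an alanine codon closed both boxes in 27 members. All 23 PIPs and TIPs were among these 27, and the 8 others were 5 NIPs and all 3 SIPs. The windows that follow are given because the results turn on these members. Each is read 5′ to 3′ along the coding strand within 1 exon, and the capitals mark the 3 codons of the box.
PIP2-6 (AT2G39010, second box, chr2:16293459-16293503, + strand): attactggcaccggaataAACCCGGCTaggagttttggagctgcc
TIP2-1 (AT3G16240, second box, chr3:5506606-5506650, + strand): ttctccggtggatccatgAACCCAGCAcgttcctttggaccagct
NIP1-1 (AT4G19030, second box, chr4:10421896-10421940, - strand): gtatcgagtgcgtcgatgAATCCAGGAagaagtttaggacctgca
NIP1-2 (AT4G18910, second box, chr4:10367964-10368008, + strand): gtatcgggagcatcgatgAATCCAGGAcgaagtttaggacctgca
NIP6-1 (AT1G80760, second box, chr1:30350784-30350828, - strand): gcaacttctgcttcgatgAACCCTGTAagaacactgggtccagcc
SIP1-1 (AT3G04090, first box, chr3:1073798-1073842, - strand): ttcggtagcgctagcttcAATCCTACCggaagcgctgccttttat
SIP1-2 (AT5G18290, first box, chr5:6056168-6056212, - strand): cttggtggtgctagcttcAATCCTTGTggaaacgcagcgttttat
The third codon of the box codes for alanine in PIP2-6 and TIP2-1, for glycine in NIP1-1 and NIP1-2, for valine in NIP6-1, for threonine in SIP1-1 and for cysteine in SIP1-2.

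Reads were 50 bases long, so a stretch of 50 bases that also occurs in another gene cannot be assigned to either. In RefSeq transcripts, 24 of the 35 members had no such stretch in common with any other gene, on either strand. The tandem neighbours PIP2-2 (AT2G37170, chr2:15613368-15615022) and PIP2-3 (AT2G37180, chr2:15617635-15619155), with 94.8% identical coding bases, had 254 stretches in common, 19.6% of those of PIP2-2 and 21.7% of those of PIP2-3. The tandem neighbours NIP4-1 (AT5G37810) and NIP4-2 (AT5G37820) had 29. The values of these pairs are therefore uncertain in how reads were split between them. Most of NIP2-1 (AT2G34390, 63.3%), much of TIP3-2 (40.5%) and part of TIP3-1 (21.3%) was also found in other annotated loci, which makes their low values uncertain too. TIP2-1 had 71 stretches (6.23%) in common with a transcript of a neighbouring locus, SIP2-1 (AT3G56950) had 98 (9.25%), and NIP3-1 (AT1G31885) had 122 (10.8%) in common with another locus. PIP2-6, NIP1-1, NIP1-2, SIP1-1 and SIP1-2 had none.

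In the 250 bases before the annotated gene start, the letters ACGTG, the core of the abscisic acid response element, occurred on either strand in 4 of the 35 members (11.4%) and in 22.9% of 27443 protein-coding genes. The letters CCGAC, the core of the dehydration response element, occurred in 4 members (11.4%) and in 11.97% of the same genes. On the other strand these letters read CACGT and GTCGG, and ACGTG overlaps its own reverse where CACGTG stands. Among the 9 members called by NaCl in roots below, only SIP1-1 held a match to either. The windows of SIP1-1 and of TIP1-1 (AT2G36830), the 1 member with both, are printed with the matches in capitals.
SIP1-1 (chr3:1074245-1074494, - strand): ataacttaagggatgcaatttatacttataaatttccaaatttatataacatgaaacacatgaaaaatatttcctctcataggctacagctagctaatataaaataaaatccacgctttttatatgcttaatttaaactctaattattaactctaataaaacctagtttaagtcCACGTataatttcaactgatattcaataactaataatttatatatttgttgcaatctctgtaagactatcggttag
TIP1-1 (chr2:15445044-15445293, + strand): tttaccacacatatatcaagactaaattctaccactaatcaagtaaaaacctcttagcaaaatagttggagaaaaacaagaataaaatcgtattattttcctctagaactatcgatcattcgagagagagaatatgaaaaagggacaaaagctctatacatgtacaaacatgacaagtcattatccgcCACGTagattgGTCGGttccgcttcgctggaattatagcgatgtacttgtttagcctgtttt
A match is a description of these letters and no evidence of a bound factor.

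Aquaporin mRNA was abundant in both organs and came mostly from PIPs and TIPs. The family held between 0.369% and 0.658% of all counts in root libraries and between 0.306% and 0.542% in shoot libraries. Its FPKM summed to between 3036 and 5459 in roots and between 2470 and 4405 in shoots. Of that sum, PIP2s made up 37.4% in roots and 34.9% in shoots on average, PIP1s 29.8% and 32.0%, and TIPs 25.9% and 30.8%. NIPs made up 3.79% in roots and 0.457% in shoots, and their ranges, 2.64% to 4.97% and 0.232% to 0.927%, did not overlap.

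In roots the highest mean levels were those of PIP2-1 (AT3G53420), a main water channel of root and leaf plasma membranes, at 556 FPKM, PIP2-2 at 482 FPKM, PIP1-2 (AT2G45960) at 459.5 FPKM and PIP2-7 (AT4G35100) at 413 FPKM. PIP2-1 ranged over the 12 root libraries from 364 to 766 FPKM with a median of 542, so the order among these 4 was within the spread of the libraries. The highest TIP in roots was TIP1-1, a vacuole channel of most tissues, from 221 to 591 FPKM, and the highest NIP was NIP1-1, known for arsenite uptake, from 59.9 to 119.6 FPKM. In shoots the highest was TIP1-2 (AT3G26520), from 397 to 723 FPKM, followed by PIP1-2 from 309.9 to 495, PIP2-7 from 257 to 627 and PIP2-1 from 169 to 484 FPKM. The highest SIP in both organs was SIP1-1, from 70.9 to 95.2 FPKM in roots and from 33.1 to 50.2 in shoots. NIP6-1, a boric acid channel of young shoot tissue, was the highest NIP in shoots, from only 1.79 to 15.0 FPKM.

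**Figure D1:**
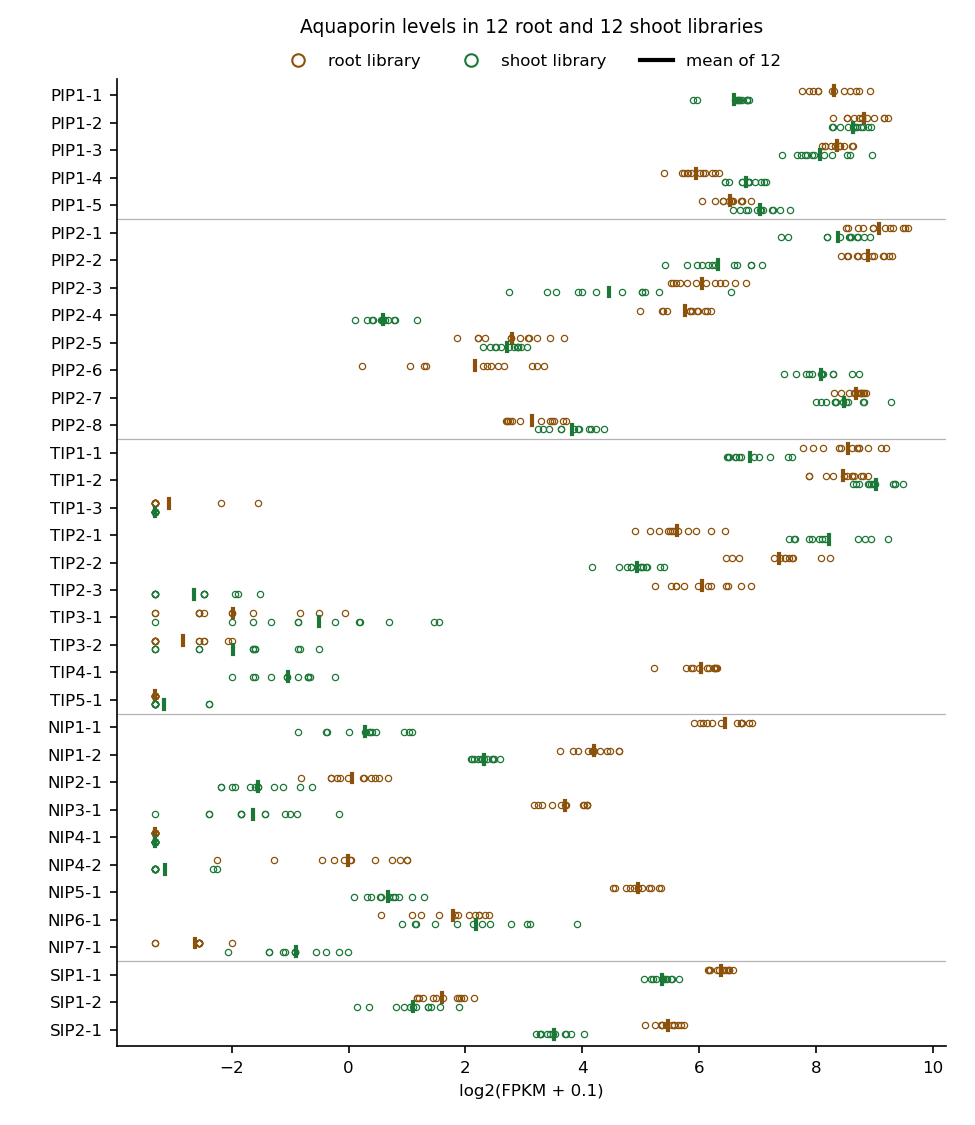
Level of each of the 35 aquaporins on the x axis as log2(FPKM + 0.1), with 1 open circle per library, brown for 12 root and green for 12 shoot libraries, and a short bar at the mean of 12. TIP2-3, TIP4-1 and NIP1-1 lie far to the right in roots, PIP2-6 and TIP2-1 in shoots, and NIP4-1 was at 0 in every library.

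The question of how organs divide the family was tested in a model of all 24 libraries. Of 30 members tested, 28 were called in the comparison of roots with shoots at an adjusted p under 0.05 (edgeR quasi-likelihood test, Benjamini-Hochberg adjustment over all genes tested), against 82.0% of all 21338 genes. Of these, 16 were higher in roots (42.9% of all genes) and 12 higher in shoots (39.2% of all genes). With scaling by library size only, the split was 18 to 7. That scaling moved the median log2 fold change of all genes, root over shoot, from 0.04 to 0.59. It and both FPKM scales turned the direction of PIP1-2, PIP1-3 (AT1G01620), PIP2-5 (AT3G54820) and PIP2-7, whose log2 fold changes lay between -0.47 and -0.29, so no direction between organs is given for these 4. PIP2-1 (log2 0.13, SE 0.15) and SIP1-2 (log2 -0.07, SE 0.15) did not pass the test.

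The root side was led by TIP2-3 (AT5G47450), an ammonia-permeable vacuole channel. It ranged from 37.9 to 119 FPKM in roots, with a median of 67.3, and from 0 to 0.25 FPKM in shoots. Its expected count was at most 3 in each shoot library and 470 to 1430 in each root library. Scaled by library size only, which raises root over shoot as given above, its root mean was at least 281-fold higher, taking 3 counts per shoot library. TIP4-1 (AT2G25810), a vacuole channel known from roots, ranged from 37.5 to 78.8 FPKM in roots and from 0.15 to 0.75 in shoots (log2 6.78, SE 0.17, adjusted p = 1.39e-18 by edgeR). NIP1-1 followed with 59.9 to 119.6 FPKM in roots and 0.45 to 2.02 in shoots (log2 5.70, SE 0.10, adjusted p = 7.17e-21). Each of these 3 genes was at most 2.02 FPKM in every shoot library, and for none of them did a root library overlap a shoot library.

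Among other solute channels, NIP3-1, with the shared stretches given above, and NIP5-1 (AT4G10380), the boric acid uptake channel of roots, were higher in roots by log2 5.06 (SE 0.24) and 3.81 (SE 0.12). PIP2-4 (AT5G60660) ranged from 31.8 to 73.7 FPKM in roots and from 0.98 to 2.15 in shoots, the largest root excess of a PIP (log2 4.72, SE 0.10). All 7 NIPs tested had a call, 6 of them higher in roots, and NIP6-1 was the exception (log2 -1.03, SE 0.26). With library size scaling NIP6-1 lost its call, at log2 -0.47 and an adjusted p of 0.0896 by edgeR. Both FPKM scales lost it too, although its estimate stayed negative. The expected counts of NIP6-1 overlapped between the organs, at 19 to 75 in root and 25 to 207 in shoot libraries.

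The shoot side was led by PIP2-6 (AT2G39010), a PIP known from leaves. It ranged from 175 to 428 FPKM in shoots and from 1.07 to 10.03 FPKM in roots (log2 -6.47, SE 0.19, adjusted p = 8.17e-18 by edgeR). TIP2-1 (AT3G16240), an ammonia-permeable vacuole channel, ranged from 187 to 606 FPKM in shoots and from 29.9 to 87.1 in roots (log2 -3.16, SE 0.16, adjusted p = 1.63e-13). Neither gene overlapped between the organs. The close relatives TIP2-1, TIP2-2 (AT4G17340) and TIP2-3 thus stood on different sides, with TIP2-2 higher in roots by log2 1.92 (SE 0.17). TIP3-1 (AT1G73190), a seed vacuole channel, was also called higher in shoots (log2 -2.46, SE 0.60) but at very low levels, from 0 to 2.83 FPKM in shoots and from 0 to 0.86 in roots, and the organs overlapped.

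The remaining members differed less between the organs, on both sides. PIP1-1 (AT3G61430) was higher in roots, from 217 to 489 FPKM against 59.6 to 115 in shoots (log2 1.15, SE 0.14). PIP1-4 (AT4G00430) was higher in shoots, from 87.1 to 141 FPKM against 42.4 to 81.3 in roots (log2 -1.41, SE 0.11). PIP1s are known to form mixed tetramers with PIP2s. TIP1-1 was higher in roots (log2 1.16, SE 0.15) and its relative TIP1-2 in shoots (log2 -1.09, SE 0.12). PIP2-2, NIP1-2, SIP1-1 and SIP2-1 were higher in roots by log2 1.98, 1.36, 0.45 and 1.40, and PIP1-5 and PIP2-8 were higher in shoots, at log2 -1.06 and -1.25. PIP2-3 (log2 0.91, SE 0.28) and NIP2-1 (log2 1.27, SE 0.24) were also called higher in roots, with the uncertainty in shared reads given above. With at most 1 count in any shoot library, NIP4-2 was higher in roots by at least 3.44-fold when scaled by library size only, taking 3 counts per shoot library.

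Members known from seed, pollen or anthers were near or at 0. NIP4-1 had no count in any of the 24 libraries. TIP1-3 (AT4G01470), known from pollen, was at 0 in 22 libraries and had at most 2 counts, and TIP5-1 (AT3G47440), also known from pollen, was at 0 in 22 libraries with at most 1 count. TIP3-2 (AT1G17810), a seed channel, had at most 2 counts in a root and 8 in a shoot library, and NIP7-1 (AT3G06100), known from anthers, at most 2 and 12. NIP7-1 was at least 2.17-fold higher in shoots when scaled by library size only, taking 3 counts per root library. These 5 members did not pass the filter in the 24-library model, which required at least 10 counts in at least 3 libraries. A count of 0 in a library allows up to 3 counts there, and these limits cover counting error only.

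Without regard to the replicate number, 9 aquaporins were called by NaCl in roots when the ploidies were averaged. PIP2-6, PIP2-8 (AT2G16850) and NIP1-2 rose. NIP1-1, SIP1-1, SIP1-2, NIP4-2, PIP2-4 and TIP2-1 fell. These 9 of 29 tested members, at an adjusted p under 0.05 by edgeR's quasi-likelihood test, stood against 19.0% of all 20239 genes tested, with 7.40% of all genes higher and 11.6% lower with NaCl. The median log2 fold change was -0.18 over the 29 members and 0.01 over all genes. A fit with the replicate number as a block called 15 of 29 members, 7 higher and 8 lower with NaCl, among 5186 of 20239 genes. Without the block, none of 5 PIP1s was called, 3 of 8 PIP2s were, 1 of 6 TIPs, 3 of 7 NIPs and 2 of 3 SIPs.

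PIP2-6 had the largest rise. Its FPKM in replicates 1, 2 and 3 was 5.08, 4.80 and 1.98 in diploid control roots, and 6.2, 10.03 and 8.72 in diploid NaCl roots. The neo-tetraploids had 2.34, 2.41 and 1.07 FPKM without and 5.33, 9.29 and 5.81 with NaCl. Every NaCl library was above every control library of the same ploidy (log2 1.37, SE 0.26, adjusted p = 0.00274, edgeR). The call held under all 7 other settings and without any of the 12 libraries.

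PIP2-6 is a shoot-rich gene, and shoot markers moved with NaCl in roots too. Of the 5 shoot markers, 3 were called higher in NaCl roots, RBCS1A, LHCB1.3 and GAPA, none was lower and none was at 0 in the root means. Their sum ranged from 135 to 191 FPKM in diploid roots without and from 142 to 264 with NaCl, and from 73.1 to 122 FPKM in neo-tetraploid roots without and from 164 to 262 with NaCl. Relative to its own shoot mean, PIP2-6 went from 1.05% in control roots to 2.70% in NaCl roots, a gain of 1.65% of its shoot mean. The gain of the 5 shoot markers was between 0.0121% (CA1) and 0.402% (GAPA) of theirs. The part of shoot RNA in the rise of PIP2-6 was not tested beyond these values.

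PIP2-8, a PIP closest in sequence to PIP2-7, also rose. Its FPKM was 6.55, 6.88 and 9.73 in diploid control roots and 7.57, 12.6 and 11.4 in diploid NaCl roots. The neo-tetraploid roots had 6.71, 6.48 and 6.34 FPKM without and 11.1, 13.1 and 10.8 with NaCl. The neo-tetraploid groups did not overlap and the diploid groups did (log2 0.57, SE 0.14, adjusted p = 0.0116, edgeR). Within replicate numbers, PIP2-8 was higher with NaCl in every replicate of both ploidies. PIP2-7, with 84.6% identical coding bases and about 413 FPKM in roots, had a log2 fold change of -0.18 (SE 0.10, adjusted p = 0.242).

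The NIP1 pair moved in opposite directions. NIP1-1 (chr4:10421521-10423508) measured 104.7, 100.2 and 115.8 FPKM in diploid control roots and 64.8, 74.6 and 82.7 in diploid NaCl roots. In neo-tetraploid roots it measured 107, 105.5 and 119.6 FPKM without and 69.9, 67.4 and 59.9 with NaCl. All 6 NaCl libraries lay below all 6 control libraries (log2 -0.71, SE 0.08, adjusted p = 9.86e-05, edgeR), and the call held under every setting and without any library.

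NIP1-2 (chr4:10366044-10368510), a plasma membrane channel on the same chromosome with 85.2% identical coding bases, measured 17.96, 21.3 and 18.2 FPKM in diploid control roots and 22.2, 24.7 and 24.5 in diploid NaCl roots. In neo-tetraploids it measured 12.3, 15.1 and 14.3 FPKM without and 16.99, 18.4 and 19.6 with NaCl. NaCl libraries were above control libraries within each ploidy (log2 0.29, SE 0.08, adjusted p = 0.0293, edgeR). This call was kept in 5 of the 12 runs that left out 1 library, with an adjusted p of at most 0.0688.

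Both SIP1 genes fell. SIP1-2 measured 3.53, 4.35 and 2.95 FPKM in diploid control roots and 2.72, 2.16 and 2.2 in diploid NaCl roots. Neo-tetraploid roots had 3.70, 3.62 and 3.85 FPKM without and 2.15, 2.33 and 2.63 with NaCl. No NaCl library reached a control library (log2 -0.70, SE 0.14, adjusted p = 0.00429, edgeR), and the call held under every setting and without any library. SIP1-1 was more abundant per length, at a mean of 83.5 FPKM in roots against 3.02 for SIP1-2. It measured 86.3, 95.2 and 81.1 FPKM in diploid control roots and 72.5, 88.3 and 71.6 in diploid NaCl roots. In neo-tetraploids it measured 91.7, 90.0 and 91.2 FPKM without and 79.4, 83.9 and 70.9 with NaCl, and only the neo-tetraploid groups did not overlap (log2 -0.27, SE 0.07, adjusted p = 0.0221, edgeR). That call was lost with library size scaling, both FPKM scales and the 24-library model, and in 5 of 12 runs without 1 library, with an adjusted p of at most 0.0793. Within replicate numbers, SIP1-1 was lower with NaCl in every replicate of both ploidies.

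PIP2-4 fell from 41.1, 68.7 and 57.7 to 31.8, 41.4 and 43.4 FPKM in diploid roots, and its values were 70.1, 73.7 and 62.8 FPKM without and 62.3, 58.5 and 57.5 with NaCl in neo-tetraploid roots. The diploid groups overlapped and the neo-tetraploid groups did not (log2 -0.44, SE 0.12, adjusted p = 0.0248, edgeR). TIP2-1 measured 44.0, 73.7 and 49.9 FPKM in diploid control roots and 29.9, 46.1 and 35.5 in diploid NaCl roots. In neo-tetraploid roots it measured 45.2, 87.1 and 61.9 FPKM without and 39.7, 56.4 and 47.4 with NaCl, and the groups overlapped in both ploidies (log2 -0.58, SE 0.18, adjusted p = 0.0344). Replicate 2 was the highest of 3 in all 4 root groups for TIP2-1. Compared within replicate numbers, PIP2-4 and TIP2-1 were both lower with NaCl in every replicate of both ploidies. The call of PIP2-4 was lost on both FPKM scales and in 5 of 12 runs without 1 library, and that of TIP2-1 under 4 of 7 settings and in 7 of 12 runs.

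NIP4-2, known from pollen, was near the detection limit. It measured 1.91, 1.75 and 1.89 FPKM in diploid control roots, 0.63, 0.92 and 0.31 in diploid NaCl roots, and, in neo-tetraploids, 1.26, 0.74 and 1.58 FPKM without and 0.11, 0.85 and 0.93 with NaCl (log2 -1.29, SE 0.36, adjusted p = 0.0242, edgeR). Its expected count was between 1 and 19 in root libraries, and the call was lost in 3 of 12 runs without 1 library, with an adjusted p of at most 0.0640. Within replicate numbers, NIP4-2 was lower with NaCl in all but replicate 2 of the neo-tetraploids.

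**Figure D2:**
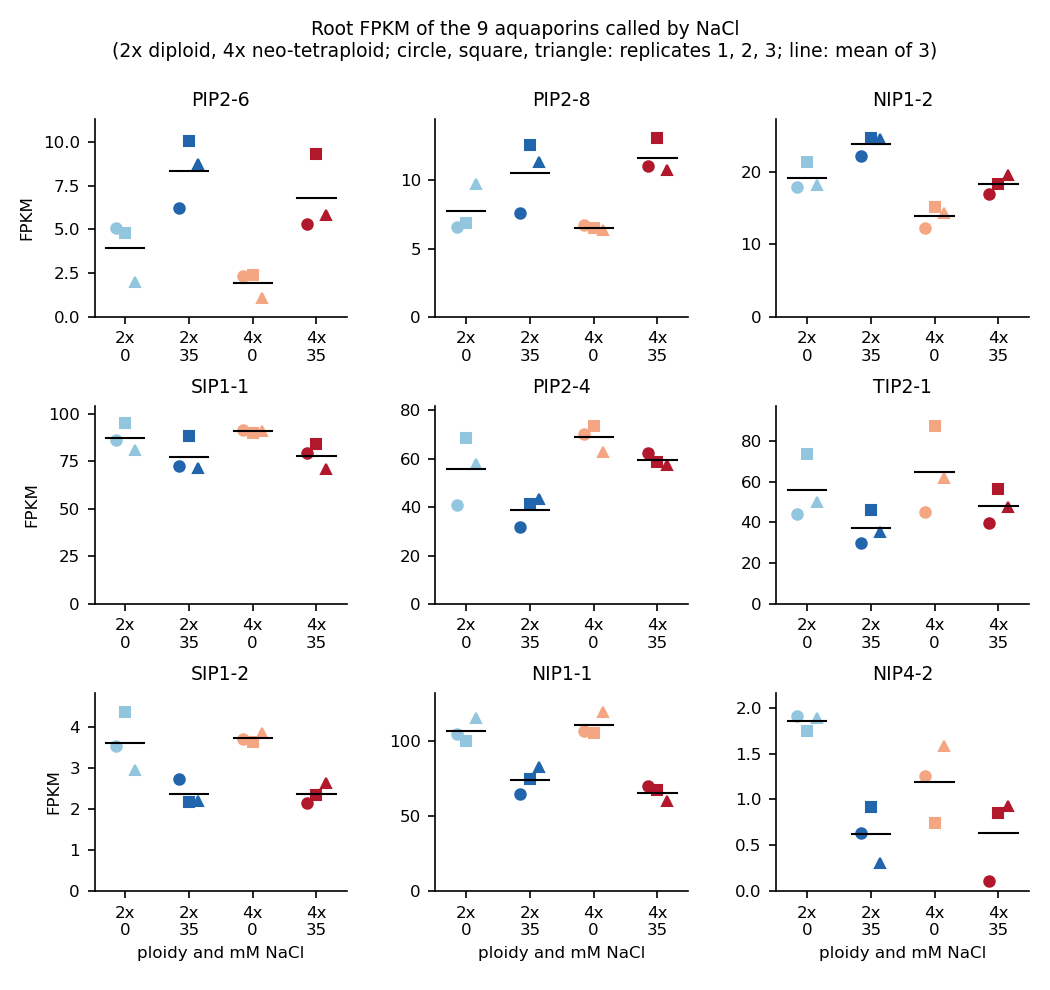
FPKM in each root library of the 9 aquaporins called by NaCl without the replicate block, in 4 groups by ploidy (2x, 4x) and NaCl (0, 35 mM), with the 3 replicates as circle, square and triangle and a line at the mean of 3. PIP2-6 rises and NIP1-1 and SIP1-2 fall in both ploidies, while SIP1-1 and TIP2-1 move by less than their spread in some groups.

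Within diploid roots alone 3 members were called, NIP1-1, SIP1-2 and PIP2-4, all lower with NaCl, against 9.64% of all genes. Within neo-tetraploid roots 4 were called against 6.56% of all genes, NIP1-1 lower and PIP2-5, PIP2-6 and PIP2-8 higher. The replicate block gave 8 calls in diploid roots, 1 of them higher, among 3311 of 20239 genes. It gave 9 in neo-tetraploid roots, 6 of them higher, among 2376 genes. PIP2-5 was named after its values were seen. It measured 9.26, 7.54 and 6.73 FPKM in diploid control roots and 8.42, 8.34 and 4.92 in diploid NaCl roots, a log2 change of -0.20 (SE 0.24). In neo-tetraploid roots it measured 4.52, 4.53 and 3.53 FPKM without and 12.7, 10.8 and 6.74 with NaCl, a log2 change of 1.21 (SE 0.25, adjusted p = 0.0140, edgeR). Without 1 of the 6 libraries compared, NIP1-1 kept its call in 6 of 6 runs in each ploidy. In those runs PIP2-4 and SIP1-2 kept theirs in 1 of 6 each, and PIP2-5, PIP2-6 and PIP2-8 in 3, 4 and 1 of 6. Under 8 other settings, the diploid call of SIP1-2 was kept in 1 and that of PIP2-4 in 4. The neo-tetraploid calls of PIP2-5 and PIP2-6 were kept in all 8 and that of PIP2-8 in 7, and NIP1-1 kept its call in all 8 in each ploidy.

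The difference between these 2 responses, tested as the ploidy by NaCl interaction, was log2 1.41 (SE 0.34) for PIP2-5, with an unadjusted p of 0.00128 and an adjusted p of 0.529 by edgeR. The interaction in roots passed the adjusted test for 0 of 29 members and 0% of all genes. It passed an unadjusted p under 0.05 for 2 members, PIP2-5 and NIP5-1, and 6.22% of all genes, and DESeq2 and limma called 0. With the replicate number as a block, 1 member was called, PIP2-5, among 6 of 20239 genes. Same-number root libraries deviated together in 16 of 18 pairs.

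The genes that work with aquaporins are read against the same 19.0% of all genes called by NaCl in roots. Of 10 partners that bind, modify or carry PIPs, 1 was called, the receptor kinase QSK1, which fell (log2 -0.43, SE 0.08, adjusted p = 0.00246, edgeR). Of 6 proton pump genes, AHA2, the main plasma membrane pump of roots, fell (log2 -0.36, SE 0.11, adjusted p = 0.0437). Of 5 BOR boron exporters tested, BOR4 rose (log2 0.60, SE 0.17, adjusted p = 0.0296) and none fell. Of 7 water deficit reporter genes tested, 4 rose, among them RD29B (log2 1.62, SE 0.43), RAB18 (log2 1.61, SE 0.37) and KIN1 (log2 1.39, SE 0.16). Of 5 root markers, the root hair gene COBL9 fell (log2 -0.61, SE 0.08, adjusted p = 0.000315). Whether the share of root hair cells had a part in the aquaporin values was not tested.

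In shoots, no aquaporin passed the adjusted test for NaCl without regard to the replicate number, and 6 passed it with the replicate number as a block. Libraries with the same number deviated together in shoots in all 18 pairs, so the blocked values are given beside the unblocked ones. Averaged over the ploidies, 0 of 25 members were called by edgeR against 5.03% of 19174 genes, and 11 had an unadjusted p under 0.05 against 25.7%. DESeq2 called 4 and limma 0, and no share of all genes is set beside these counts. With the block, 6 of 25 were called against 17.9% of all genes: PIP2-6, PIP2-1, TIP1-1 and TIP2-1 rose, and NIP1-1 and NIP6-1 fell. Of the 25 members, 16 had a positive estimate without the block, namely 4 of 5 PIP1s, 7 of 8 PIP2s, 5 of 5 TIPs and none of the NIPs or SIPs. The median log2 fold change was 0.22 over the members and 0.01 over all genes.

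PIP2-6 measured 174.6, 236.7 and 203.2 FPKM in diploid control shoots and 279, 394.4 and 273.1 in diploid NaCl shoots. It measured 226.7, 277 and 244.6 FPKM in neo-tetraploid control shoots and 315.8, 427.8 and 314.6 in neo-tetraploid NaCl shoots. The NaCl libraries lay above the control libraries in both ploidies (log2 0.57, SE 0.16, adjusted p = 0.0658 without the block, and log2 0.55, SE 0.08, adjusted p = 0.00333 with it, edgeR). PIP2-6 therefore had a positive NaCl estimate in both organs.

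TIP2-1 measured 200.8, 198.3 and 243.7 FPKM in diploid control shoots and 491.8, 264.8 and 605.9 in diploid NaCl shoots. It measured 277, 237.2 and 286.3 FPKM in neo-tetraploid control shoots and 423.3, 187.2 and 460.8 in neo-tetraploid NaCl shoots. Replicate 2 of the neo-tetraploids was the only replicate that was lower with NaCl (log2 0.74, SE 0.21, adjusted p = 0.0691 without the block, and 0.67, SE 0.15, adjusted p = 0.0184 with it, edgeR). PIP2-1 and TIP1-1 rose with the block by log2 0.63 (SE 0.14, adjusted p = 0.0165) and 0.46 (SE 0.10, adjusted p = 0.0140). For PIP2-1 this rested most on replicate 3, which went from 168.6 to 388 FPKM in diploids and from 183 to 418.3 in neo-tetraploids. TIP1-1 measured 89.5, 90.3 and 102.5 FPKM in diploid control shoots and 91.4, 129.7 and 184.7 in diploid NaCl shoots, with 98.2, 99.7 and 123.2 going to 105, 149.1 and 193.2 in neo-tetraploids.

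NIP6-1 fell in every replicate. It measured 15.0, 8.53 and 4.77 FPKM in diploid control shoots and 6.76, 4.26 and 2.1 in diploid NaCl shoots, and 8.24, 5.28 and 2.13 FPKM in neo-tetraploid control shoots and 3.53, 2.68 and 1.79 in neo-tetraploid NaCl shoots. The groups overlapped, since replicate 1 was the highest and replicate 3 the lowest in all 4 groups (log2 -1.02, SE 0.41, adjusted p = 0.155 without the block, and -0.98, SE 0.13, adjusted p = 0.00270 with it, edgeR). NIP1-1, at trace levels in shoots, measured 1.95, 2.02 and 1.84 FPKM in diploid control and 1.22, 0.90 and 0.67 in diploid NaCl shoots, and 1.28, 1.12 and 1.17 FPKM in neo-tetraploid control and 1.19, 0.66 and 0.45 in neo-tetraploid NaCl shoots (log2 -0.84, SE 0.25, adjusted p = 0.0756 without the block, and -0.87, SE 0.22, adjusted p = 0.0258 with it, edgeR).

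**Figure D3:**
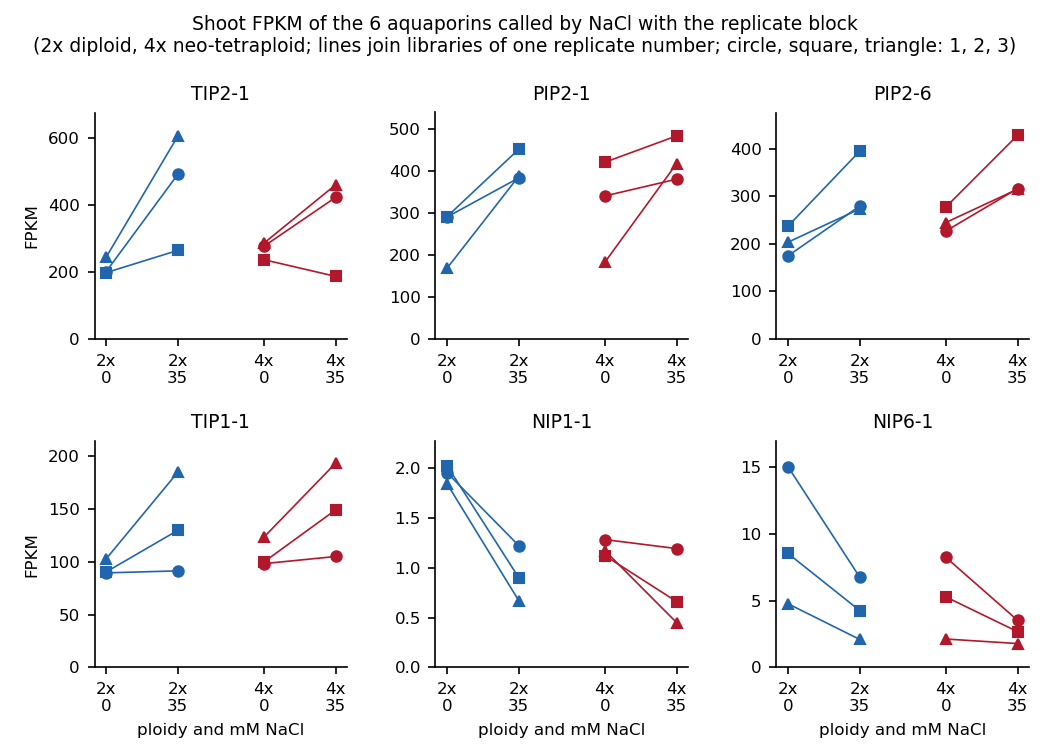
FPKM in each shoot library of the 6 aquaporins called by NaCl with the replicate block, by ploidy (2x, 4x) and NaCl (0, 35 mM), with lines joining libraries of 1 replicate number. PIP2-6 rises and NIP6-1 falls along all 6 lines, and TIP2-1 rises along all but 1 neo-tetraploid line.

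Within diploid shoots 0 of 25 members and 0% of all genes were called, and 8 members and 17.6% of genes had an unadjusted p under 0.05. DESeq2 called 1, TIP2-1, and limma 0, again with no share of all genes beside them. With the block 4 members were called, PIP2-1, PIP2-6, TIP2-1 and NIP6-1, against 6.88% of all genes. Within neo-tetraploid shoots 0 members and 0.0104% of genes were called, with an unadjusted p under 0.05 in 0 members and 12.4% of genes, and DESeq2 and limma called 0. With the block 1 member, NIP6-1, was called (log2 -0.92, SE 0.19, adjusted p = 0.0481) against 1.64% of all genes. The interaction in shoots passed for 0 members and 0% of genes, and its unadjusted p was under 0.05 for 0 members and 2.91% of genes, with 0 calls by DESeq2 and limma.

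The other lists in NaCl shoots are read without the block, against 5.03% of all genes called. Of 10 PIP partners 1 was called, TSPO, a stress-induced protein that binds PIP2s for breakdown, which rose (log2 2.91, SE 0.59, adjusted p = 0.0297, edgeR). Of 8 water deficit reporters 3 rose, RD29B (log2 2.97, SE 0.60), KIN1 (log2 1.77, SE 0.44) and RAB18 (log2 1.23, SE 0.30). None of 6 proton pumps and none of 4 boron exporters tested was called.

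**Figure D4:**
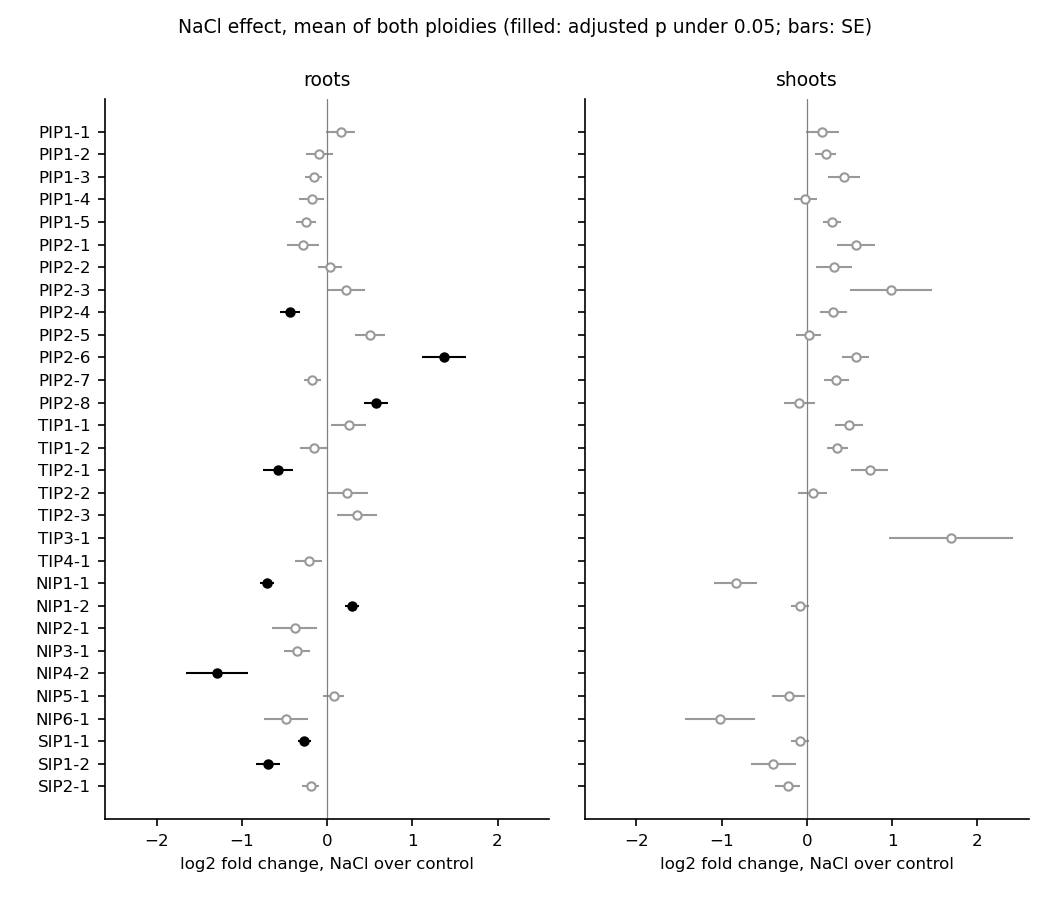
Log2 fold change of NaCl over control, averaged over the ploidies and fitted without the replicate block, for each aquaporin tested in roots (left) and shoots (right), with SE bars. Filled points have an adjusted p under 0.05, which 9 of 29 have in roots and 0 of 25 in shoots. TIP2-1 lies below 0 in roots and above 0 in shoots.

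Whether NaCl acted differently in roots and shoots was tested in the 24-library model. Without the replicate block, the difference between the organs passed for 2 of 30 members, TIP2-1 and PIP2-4, against 5.13% of all genes. More members were called with the block and with limma on log2(FPKM + 1), with counts in the last section. For TIP2-1, the fall in roots and the higher level in shoots differed by log2 -1.32 (SE 0.30, adjusted p = 0.0177, edgeR), and the call held under all 6 other settings and without any of the 24 libraries. For PIP2-4 the difference was log2 -0.75 (SE 0.21, adjusted p = 0.0440), with 13 to 28 counts per shoot library, and the call was lost with DESeq2, library size scaling and no filter and was kept in 5 of 24 runs that left out 1 library. NIP1-1 fell in roots, and its organ difference was log2 0.13 (SE 0.21), so no unequal response of the organs was shown for it.

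The effect of ploidy was tested within each organ. Averaged over the treatments, 2 of 29 members were called in roots, PIP2-4 higher and NIP1-2 lower in neo-tetraploids, against 5.05% of all genes. From the values above, PIP2-4 was between 31.8 and 68.7 FPKM in diploid and between 57.5 and 73.7 in neo-tetraploid roots, and the ploidies overlapped in control roots but not in NaCl roots (log2 0.52, SE 0.12, adjusted p = 0.0278, edgeR). NIP1-2 was between 17.96 and 24.7 FPKM in diploid and between 12.3 and 19.6 in neo-tetraploid roots, and the ploidies did not overlap within either treatment (log2 -0.35, SE 0.08, adjusted p = 0.0296). Each call was kept in 5 of 12 runs without 1 library, and NIP1-2 was not called in the 24-library model. With the replicate block 9 members were called, 8 of them higher in neo-tetraploids, among 2176 of 20239 genes. Of the 29 members, 24 had a positive estimate, with a median log2 of 0.13 against -0.01 over all genes. This count depended on the scaling. With library size scaling 18 were positive, with a median of 0.07 against -0.08 over all genes, and 18 were positive on each FPKM scale. Of 5 root markers, 2 were called higher in neo-tetraploid roots, EXPA7 (log2 0.57, SE 0.10) and COBL9 (log2 0.41, SE 0.08), with a median of log2 0.34 over the 5, and their part in the value of root-rich PIP2-4 was not tested.

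In control roots 0 members were called against 2.31% of all genes, and 3 (PIP2-5, PIP2-6 and NIP1-2) against 14.6% had an unadjusted p under 0.05. All 3 were lower in neo-tetraploids, PIP2-5 by log2 -0.84 (SE 0.25), PIP2-6 by -0.97 (SE 0.39) and NIP1-2 by -0.41 (SE 0.12). In the same comparison 1 of 5 shoot markers, GAPA, was called lower (log2 -0.77, SE 0.18, adjusted p = 0.0408, edgeR), and the median of the 5 was log2 -0.68. The part of shoot RNA in the value of shoot-rich PIP2-6 was not tested. DESeq2 called 1, PIP2-5, among 804 of 20239 genes, and limma 0. The replicate block gave 2 calls in control roots, both lower in neo-tetraploids, among 1100 of 20239 genes. In NaCl roots 0 were called against 0.252% of all genes, and 7 had an unadjusted p under 0.05 against 14.9%. DESeq2 called 1, PIP2-4, among 337 of 20239 genes, and limma 0. The replicate block gave 5 calls in NaCl roots, all higher in neo-tetraploids, among 356 of 20239 genes.

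In shoots no aquaporin differed by ploidy at the adjusted threshold. Averaged over the treatments, 0 of 25 were called against 0.0261% of genes, and 2 had an unadjusted p under 0.05 against 10%. These were PIP2-2 (log2 0.57, SE 0.21) and PIP1-5 (AT4G23400, log2 -0.27, SE 0.11). In control shoots 0 were called against 0.0104% of genes, with 1 member (PIP2-2) against 9.08% at an unadjusted p under 0.05. In NaCl shoots 0 were called against 0.0104%, with 1 member (PIP2-7) against 3.89%. DESeq2, limma and the blocked fit called 0 in each of these. The organs did not differ in the ploidy effect for any of 30 members at the adjusted threshold, against 0.00469% of all genes, while 6 members and 7.31% of genes had an unadjusted p under 0.05, and DESeq2 and limma called 0.

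**Figure D5:**
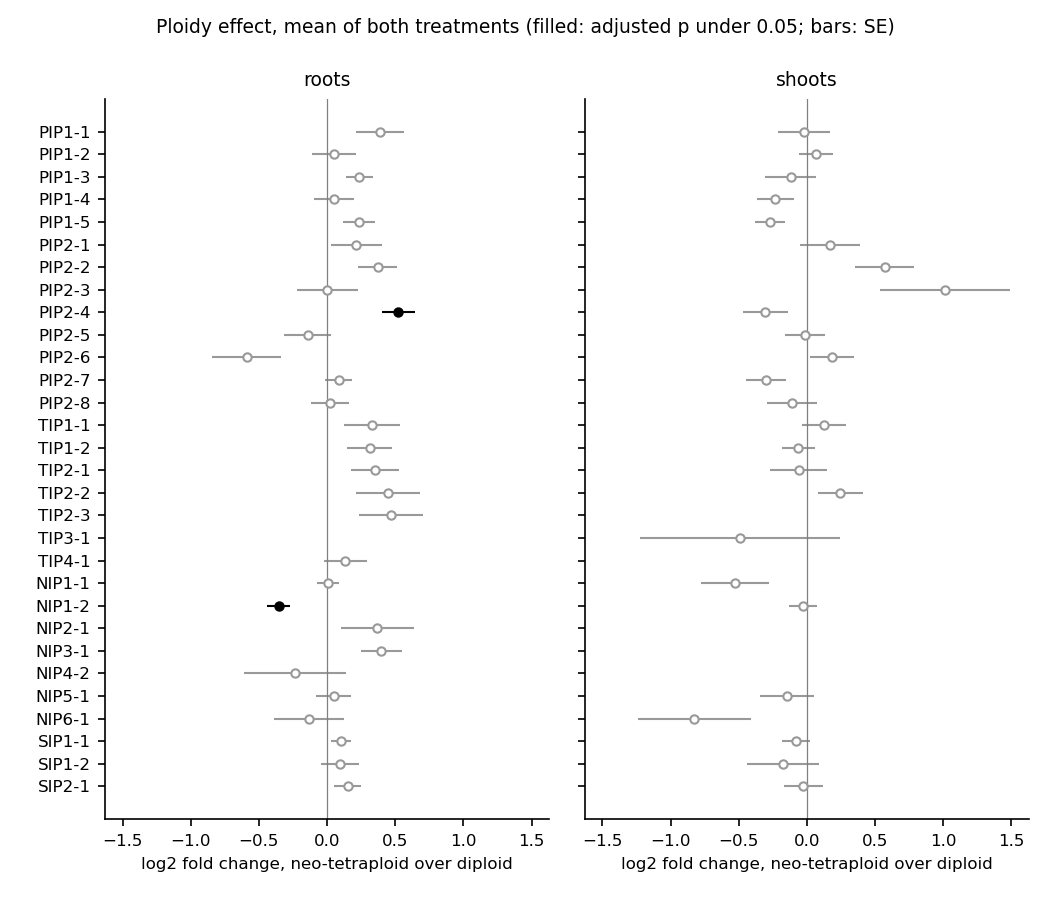
Log2 fold change of neo-tetraploid over diploid, averaged over the treatments, for each aquaporin tested in roots (left) and shoots (right), with SE bars. In roots PIP2-4 (0.52) and NIP1-2 (-0.35) are the filled points, with an adjusted p under 0.05, and no point is filled in shoots.

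The summed FPKM of the family was highest in replicate 2 in all 4 root groups, at 5031, 4860, 5031 and 5459 FPKM in diploid control, diploid NaCl, neo-tetraploid control and neo-tetraploid NaCl roots. The spread within each of these groups, between 618 and 919 FPKM (SD, n = 3), stood beside means of 4178 FPKM in diploid and 4381 in neo-tetraploid control roots, and of 3883 FPKM in diploid and 4689.9 in neo-tetraploid NaCl roots. The ploidies overlapped within each treatment. Compared within replicate numbers, the neo-tetraploid sum was the higher in every replicate of both treatments. The closest were 5030.54 FPKM in diploids and 5031.26 in neo-tetraploids, in control replicate 2. In shoots the family sum ranged from 2470 to 2822 in diploid control, 3312 to 4405 in diploid NaCl, 2653 to 3048 in neo-tetraploid control and 3235 to 4013 FPKM in neo-tetraploid NaCl libraries, without overlap between control and NaCl libraries of the same ploidy. No test is given for these sums.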

How the data were processed

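Polyadenylated RNA of 24 root and shoot pools was sequenced by the authors as single-end reads of 50 bases with no strand marking stated, aligned to TAIR10 (HISAT and Bowtie2) and quantified per gene with RSEM. Tool versions are not given in the sources used here. The deposited values are RSEM expected counts per gene, which are not normalized, and FPKM, which the authors scaled by gene length and library total. The deposited gene length (another unit) was not tested. Library totals lay within a narrow range, so depth limits chiefly the members with few counts, and intervals and floors cover counting error only.

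The members and lists were chosen with earlier results of these data known. Expected counts were rounded to whole numbers and tested with edgeR 4.0.16 (R 4.3.3): TMM scaling, the quasi-likelihood test, at least 10 counts in at least 3 libraries of the fit, and Benjamini-Hochberg adjustment over all genes tested, with calls at an adjusted p under 0.05. Roots and shoots were fitted apart (12 libraries, 4 group means), and organ contrasts in 1 model of 24 libraries, 17 contrasts in all. Fold changes are NaCl over control, neo-tetraploid over diploid and root over shoot. Alternatives were DESeq2 1.42.0, library size scaling, no filter, limma 3.58.1 on log2(FPKM + 1) or log2(FPKM + 0.1) with at least 1 FPKM in at least 3 libraries, a fold change of at least 2 besides, a replicate block, other sets of libraries in the fit, and leaving out each library. The edgeR step was tested on simulated data.

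Replicate numbers come from the sample titles. In shoots, libraries with the same number deviated from their group means together in 18 of 18 pairs (mean r = 0.374, lowest 0.145), so blocked values stand beside shoot results. In roots they did so in 16 of 18 pairs, and counts under the block stand beside the NaCl, ploidy and interaction results. By rule, values per library were given for members called by NaCl averaged over the ploidies, by ploidy or by an interaction, for the most abundant member of each subfamily in each organ, and for the 3 called members with the largest organ difference in each direction. Other genes came from fixed lists, at most 3 per list and organ. Sequences were read from RefSeq TAIR10.1 with Biopython 1.88 and the members were matched by locus, 35 of 35. Tables and figures used Python 3.11.15, pandas 2.3.3, numpy 2.4.6 and matplotlib 3.10.9.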

Additional observations from a re-analysis of the deposited data

Results flagged for a closer look

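The NaCl effect on 2 members differed between roots and shoots by the test of the difference itself (edgeR quasi-likelihood test in the 24-library model without the replicate block, adjusted over all genes). The block called more members, as given below. The difference, root effect minus shoot effect, was log2 -1.3236 for TIP2-1 (adjusted p = 0.0177) and log2 -0.7529 for PIP2-4 (adjusted p = 0.0440). The call of TIP2-1 held under the 6 alternatives run and without any of the 24 libraries. That of PIP2-4 was lost under 3 of 6 alternatives (DESeq2, library size scaling, no filter) and kept in 5 of 24 runs without 1 library.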

How the results depend on the processing

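Counts of called members depended most on the replicate block. With it, NaCl in roots called 15 members on average over the ploidies, among 5186 of 20239 genes, against 9 among 3843 without it. NaCl called 8 in diploid roots (3311 genes) and 9 in neo-tetraploid roots (2376 genes). Ploidy in roots called 9 on average (8 of them higher in neo-tetraploids, 2176 genes), 2 in control roots (1100 genes) and 5 in NaCl roots (356 genes). The interaction in roots called 1 (PIP2-5, log2 1.40, SE 0.21, adjusted p = 0.0495 by edgeR, among 6 genes called), and organ and NaCl called 6. In shoots 6 were called by NaCl on average (17.9% of all genes), 4 in diploids (6.88%) and 1 in neo-tetraploids (1.64%), and the block changed no other count from 0 in shoots. Root numbers did not pass the pairing rule (16 of 18 pairs over 0.1, mean r = 0.212), although 12 of 12 root libraries correlated best with their own number. A fold change of at least 2 left 2 members for NaCl in roots on average (600 genes), 0 in diploids (570 genes) and 2 in neo-tetraploids (482 genes). It left 0 for ploidy in roots on average (136 genes) and 1 for organ and NaCl (348 genes). Library size scaling gave 1 for NaCl in diploid roots (2085 genes), 1 for NaCl in shoots and 1 for organ and NaCl. DESeq2 gave 4 for NaCl in shoots, 1 in diploid shoots, and 1 each for ploidy in control and in NaCl roots (804 and 337 genes). The 24-library model gave 2 for NaCl in shoots, 2 in diploid shoots and 1 for ploidy in roots (205 of 21338 genes). For organ and NaCl, no filter gave 1 and log2(FPKM + 1) gave 4, and log2(FPKM + 0.1) gave 1 for NaCl in diploid roots (1897 of 20036 genes). Leaving out 1 library gave 5 to 10 calls for NaCl in roots, 1 to 3 in diploid and 1 to 4 in neo-tetraploid roots, 0 to 2 for ploidy in roots, 0 to 2 for NaCl in shoots, 1 to 3 for organ and NaCl and 27 to 28 for organ. The cause of these shifts was not tested. Counts that stand here without a number or share of all genes are not read against a background.

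Root over shoot, 4 members reversed under library size scaling, log2(FPKM + 1) and log2(FPKM + 0.1): PIP1-2 (0.1932, 0.1774 and 0.1778), PIP1-3 (0.2503, 0.2833 and 0.2844), PIP2-5 (0.0805, 0.0795 and 0.0809) and PIP2-7 (0.1849, 0.2034 and 0.2039). Of the other values of called members under an alternative, 1085 kept direction and call and 110 lost the call. Few counts limit NIP4-2, TIP3-1 and the shoot values of PIP2-4 and NIP1-1.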
